A study of Danio rerio with 6 samples.

Results

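Transient receptor potential (TRP) channels are cation channels of the cell membrane that open to heat, irritants, osmotic or mechanical stimuli, or to signals inside the cell. Sensory neurons use members of the TRPV and TRPA subfamilies to detect heat and noxious chemicals, taste and related chemosensory cells use TRPM5 to turn a receptor signal into depolarization, and transporting epithelia take up magnesium and calcium through TRPM6, TRPM7 and TRPV channels. In the zebrafish larva these functions sit mainly in the somatosensory neurons, the chemosensory cells and the skin, which is also the site of ion uptake.

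The 9 genes described here, *trpv1*, *trpv4*, *trpa1a*, *trpa1b*, *trpm2*, *trpm5*, *trpm6*, *trpm7* and *trpc1*, belong to this family and were taken by symbol from the deposited gene tables, which list 15336 genes. All 9 had a row in every table. Whole larvae at 6 days post fertilization (6 dpf) were compared between wild-type fish of the TL (Tupfel long fin) strain and *panx1a*-/- fish made in the same strain by TALEN editing, with 3 RNA-seq libraries of total RNA per genotype and no treatment. The *panx1a*-/- line descends from 1 selected founder that carried a short frameshift deletion in the fourth exon of *panx1a*, a gene for an ATP-permeable pannexin channel, so line and genotype cannot be told apart. The number of larvae behind a library and whether libraries came from separate clutches were not given in the sources used here, so p-values measure the spread between these libraries, which may in part be technical.

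Between 13054759 and 21472044 reads were counted on genes per library. The targeted gene *panx1a* fell from 110, 114 and 147 counts in the TL libraries to 22, 17 and 13 counts in the *panx1a*-/- libraries (log2 fold change −2.72 ± 0.26, standard error; edgeR, adjusted p = 0.00793). Reads that matched no gene feature were, among those aligned uniquely, 42.9%, 30.2% and 30.7% in TL replicates 1, 2 and 3, and 51.6%, 48.4% and 59.4% in *panx1a*-/- replicates 1, 2 and 3 (p = 0.1 in a two-sided exact permutation test, which cannot go lower with 3 libraries per genotype). The 95% Wilson intervals of these shares reached at most 0.0176 percentage points to either side and, like the count limits below, cover counting error only. *panx1a*-/- libraries lay above all TL libraries in this share, and TL replicate 1 lay nearest to them. Values below are CPM, counts scaled to a common library total with TMM normalization, and are given in the order of replicates 1, 2 and 3.

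Of the 9 channel genes, *trpv4* and *trpm6* were called lower in *panx1a*-/- larvae and *trpa1b* was called higher, at an adjusted p below 0.05 in edgeR's quasi-likelihood test across all 12797 genes that passed the filter on low counts. In that test 1506 genes (11.8%) were called lower and 1264 genes (9.88%) higher, or 21.6% in either direction, and 5586 (43.7%) had an unadjusted p below 0.05. The counts given below for gene lists are to be read against these shares. *trpv4* and *trpm6* were also among the transcripts that the study selected for RT-qPCR from its analysis of these libraries, so their direction here is not independent evidence. The study's RT-qPCR listed both as down, though the entry for *trpm6* has the same values as that for *cacna1da*. In whole-larva RNA, fewer cells of a type and less RNA per cell cannot be told apart. Of the members, 6 passed the filter, which asked for about 0.569 CPM in at least 3 libraries. *trpv4* reached this level in 3 TL libraries and 1 *panx1a*-/- library, and *trpa1a* in 1 TL library and 3 *panx1a*-/- libraries, so both passed through the genotype in which they were higher. *trpv1*, *trpm2* and *trpm5* did not pass and are given below from a fit without the filter. Among the 6 tested members the log2 fold change lay above 0 for 3 and below 0 for 3, with a median of −0.10, beside −0.06 over all tested genes.

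**Figure D1:**
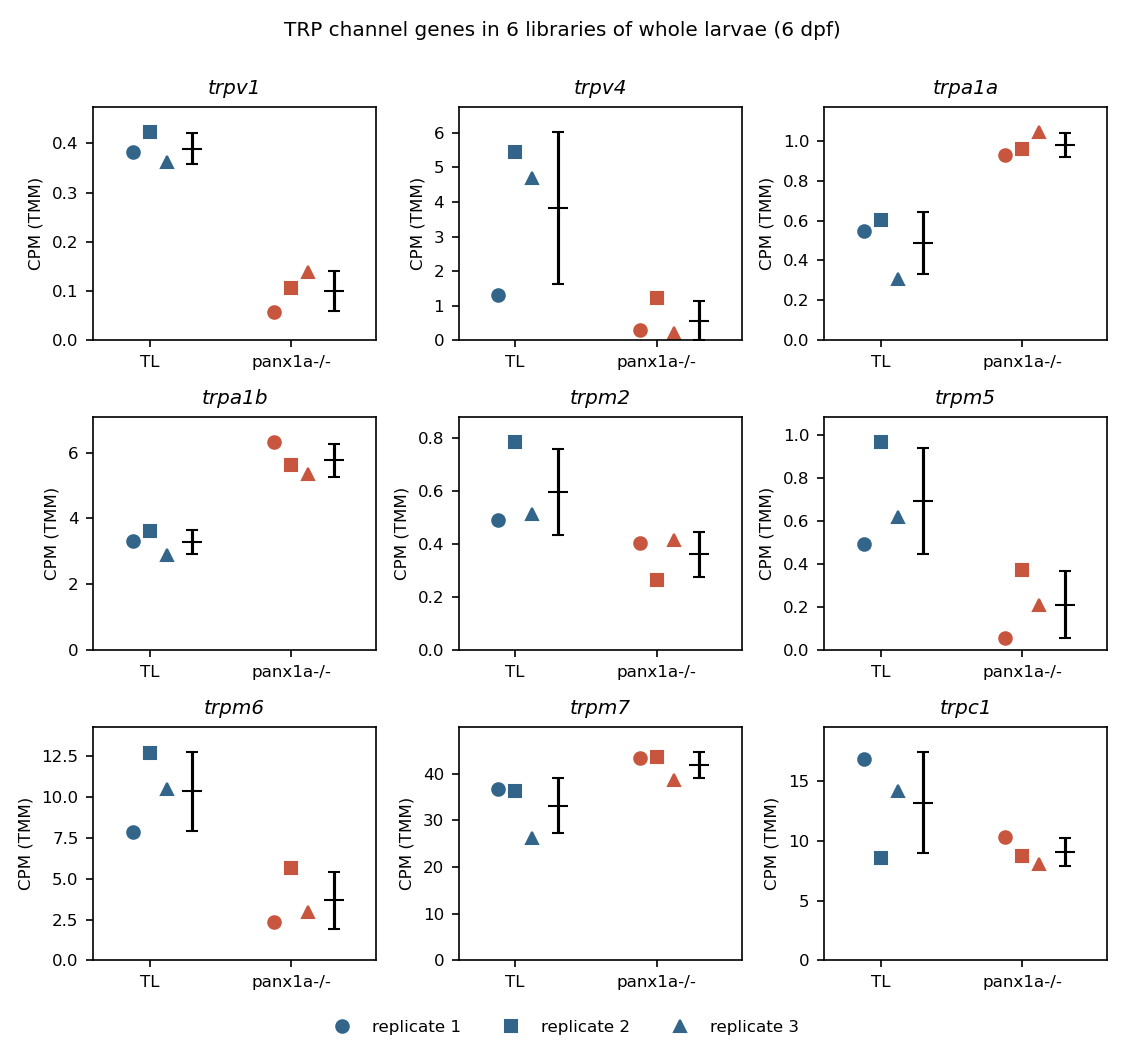
TMM-normalized CPM of the 9 TRP channel genes on the vertical axis of each panel, from 0, in 3 TL and 3 *panx1a*-/- libraries. Symbols mark the replicate number, the black bar the mean and SD of 3 libraries. *trpv4* spans 1.31 to 5.44 CPM in TL and 0.209 to 1.22 CPM in *panx1a*-/-, and *trpc1* is the gene whose genotypes overlap.

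*trpv4* encodes a channel that in mammals opens to low osmolarity, warmth and stretch in keratinocytes and other epithelia. It had 24, 90 and 91 counts in the TL libraries and 5, 23 and 3 counts in the *panx1a*-/- libraries. This corresponds to 1.31, 5.44 and 4.70 CPM against 0.290, 1.22 and 0.209 CPM. The genotypes did not overlap, but the lowest TL library, replicate 1, lay just above the highest *panx1a*-/- library, replicate 2. On average *trpv4* fell from 3.82 ± 2.201 to 0.574 ± 0.563 CPM (SD, n = 3 per genotype), a log2 fold change of −2.66 with a standard error of 0.73 (edgeR, adjusted p = 0.0435), the widest standard error among the tested members. The order of *trpv4* across the 6 libraries was the exact reverse of the order of the share of reads matched to no gene feature. This reverse order held for 373 of the tested genes (2.91%) and for 185 of the genes called lower (12.3%). It did not hold for *trpm6*, in which *panx1a*-/- replicates 1 and 3 changed places.

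*trpm6* encodes a channel fused to a kinase, which in mammals carries magnesium uptake in intestine and kidney. It was measured at 7.87, 12.7 and 10.5 CPM in TL larvae (144, 210 and 203 counts) and at 2.38, 5.69 and 2.99 CPM in *panx1a*-/- larvae (41, 107 and 43 counts). All TL libraries were above all *panx1a*-/- libraries. The mean fell from 10.3 ± 2.42 to 3.68 ± 1.76 CPM (SD, n = 3 per genotype), a 2.79-fold decrease, with a log2 fold change of −1.48 with a standard error of 0.35 (edgeR, adjusted p = 0.0335). As for *trpv4*, replicate 2 was the highest of the *panx1a*-/- libraries and replicate 1 the lowest of the TL libraries. *panx1a*-/- replicate 2 was the highest library of its genotype for 36.1% of the tested genes and for 61.5% of the genes called lower.

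*trpm7*, the closest relative of *trpm6*, is a ubiquitous channel kinase for magnesium, calcium and zinc, and zebrafish mutants in it lose pigment cells and develop skeletal defects. Its values were 36.7, 36.3 and 26.3 CPM in TL larvae and 43.4, 43.5 and 38.7 CPM in *panx1a*-/- larvae. The *panx1a*-/- libraries were all higher, by a log2 fold change of 0.34 (standard error 0.17) that did not pass the test (edgeR, adjusted p = 0.163). The pair was also compared within each library, where the scaling between libraries plays no part. For 100 counts of *trpm7* there were 21.5, 35.0 and 39.9 counts of *trpm6* in the TL libraries and 5.48, 13.1 and 7.73 counts in the *panx1a*-/- libraries. The *trpm6* to *trpm7* ratio was lower in every *panx1a*-/- library, with a log2 difference of −1.92. A two-sided exact permutation test over the libraries gave p = 0.1, its lower limit (0.2 adjusted over 4 such pairs of members). This outcome was fixed beforehand, since *trpm6* was lower and *trpm7* higher without overlap, so the ratio is no separate evidence.

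The TRPA1 genes had log2 fold changes above 0, and *trpa1b* alone among the tested members was called higher. TRPA1 is the receptor for irritants such as mustard oil, and zebrafish carry it as the paralogs *trpa1a* and *trpa1b*, of which *trpa1b* acts in somatosensory neurons. *trpa1b* rose from 3.33, 3.63 and 2.89 CPM in TL larvae (61, 60 and 56 counts) to 6.32, 5.63 and 5.35 CPM in *panx1a*-/- larvae (109, 106 and 77 counts). The libraries of a genotype lay close together and the genotypes were apart. Its mean rose from 3.28 ± 0.37 to 5.77 ± 0.50 CPM (SD, n = 3 per genotype), which is 1.76-fold, with a log2 fold change of 0.81 with a standard error of 0.21 (edgeR, adjusted p = 0.0387).

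*trpa1a* was near the detection limit in TL larvae, with 10, 10 and 6 counts against 16, 18 and 15 counts. In normalized units these were 0.546, 0.605 and 0.310 CPM against 0.928, 0.957 and 1.04 CPM. The genotypes did not overlap, and the log2 fold change of 1.00 (standard error 0.37) had an adjusted p of 0.0795 in edgeR's quasi-likelihood test. For 100 counts of *trpa1b* there were 16.4, 16.7 and 10.7 counts of *trpa1a* in TL and 14.7, 17.0 and 19.5 counts in *panx1a*-/- libraries, so this ratio overlapped between the genotypes (two-sided exact permutation test, p = 0.4, smallest possible p = 0.1). Reads shared between paralogs could not be traced in gene counts. In the RefSeq annotation of the GRCz12tu assembly 3 members overlap a gene that is also in the files, and none of these neighbours was called. *trpa1a* overlaps *dnajb6a* (log2 fold change −0.11), *trpv1* overlaps *fam222ba* (−0.63) and *trpc1* overlaps *pcolce2b* (0.09). Other overlapping genes were not in the files, among them *kcnb2b* and *LOC141380691* for *trpa1b*, *nme9* for *trpm2* and *acana* for *trpm5*. Whether reads of those genes were counted on the members was not tested.

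*trpv1*, the channel that in mammals responds to heat and capsaicin, is like *trpa1b* a gene of nociceptive neurons. It had 7, 7 and 7 counts in the TL libraries and 1, 2 and 2 counts in the *panx1a*-/- libraries, or 0.382, 0.423 and 0.361 CPM against 0.0580, 0.106 and 0.139 CPM. A count of 3, taken as the smallest level that the depth can show, equals 0.155 to 0.209 CPM in these libraries, so all *panx1a*-/- values were under it and the TL values above it. Summed over libraries, 5 counts stood against 21, a ratio of 0.256 after scaling by the TMM-normalized library sizes, with a 95% exact counting interval from 0.0754 to 0.697. In the fit without a filter *trpv1* had an adjusted p of 0.0515 and was not called. Per 100 counts of *trpa1b* there were 11.5, 11.7 and 12.5 counts of *trpv1* in TL and 0.917, 1.89 and 2.60 counts in *panx1a*-/- libraries. These ratios did not overlap (log2 difference −2.85, p = 0.1 by the same exact permutation test, 0.2 adjusted over 4 pairs). That outcome too was fixed beforehand, as *trpv1* was lower and *trpa1b* higher without overlap. For *trpv4* per 100 counts of *trpv1*, the fourth pair, the ratios ranged from 343 to 1300 in TL and from 150 to 1150 in *panx1a*-/- libraries and overlapped (exact permutation p = 0.5).

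*trpm5* encodes the calcium-activated sodium channel at the end of the taste transduction cascade. It had 9, 16 and 12 counts in TL larvae against 1, 7 and 3 counts in *panx1a*-/- larvae, or 0.492, 0.967 and 0.620 CPM against 0.0580, 0.372 and 0.209 CPM. The genotypes did not overlap, with replicate 2 again the highest of each genotype. Summed over libraries, 11 counts stood against 37, which after the same scaling is a ratio of 0.319 with a 95% exact counting interval from 0.147 to 0.640, and without a filter the adjusted p was 0.0815 (edgeR's quasi-likelihood test).

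*trpm2* encodes a channel gated by ADP-ribose that responds to oxidative stress and is known from immune cells. Its 9, 13 and 10 counts in TL larvae against 7, 5 and 6 counts in *panx1a*-/- larvae gave 0.492, 0.786 and 0.516 CPM against 0.406, 0.266 and 0.417 CPM. The gap between the genotypes was smaller than the spread within TL. The sums of 18 and 32 counts gave a ratio of 0.604 after the same scaling, which had a 95% exact counting interval from 0.319 to 1.11, and the adjusted p without a filter was 0.260 (edgeR's quasi-likelihood test).

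*trpc1* encodes a subunit of receptor- and store-operated calcium channels. It was at 16.9, 8.58 and 14.1 CPM in TL larvae and at 10.3, 8.77 and 8.06 CPM in *panx1a*-/- larvae. TL replicate 2 lay within the range of the *panx1a*-/- libraries, and the log2 fold change of −0.54 (standard error 0.26) did not pass the test (edgeR, adjusted p = 0.146).

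Across all 9 members, 5 were lower and 3 higher in *panx1a*-/- larvae with no overlap between the genotypes, and 1 overlapped. Among the 14449 genes with any count, 23.5% were lower and 21.2% higher without overlap. In the 6 tested members these numbers were 2 lower and 3 higher, beside 24.1% and 23.4% of the tested genes. Without the filter the same 3 members passed an adjusted p of 0.05, beside 19.2% of the 14449 genes in that fit called in either direction.

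**Figure D2:**
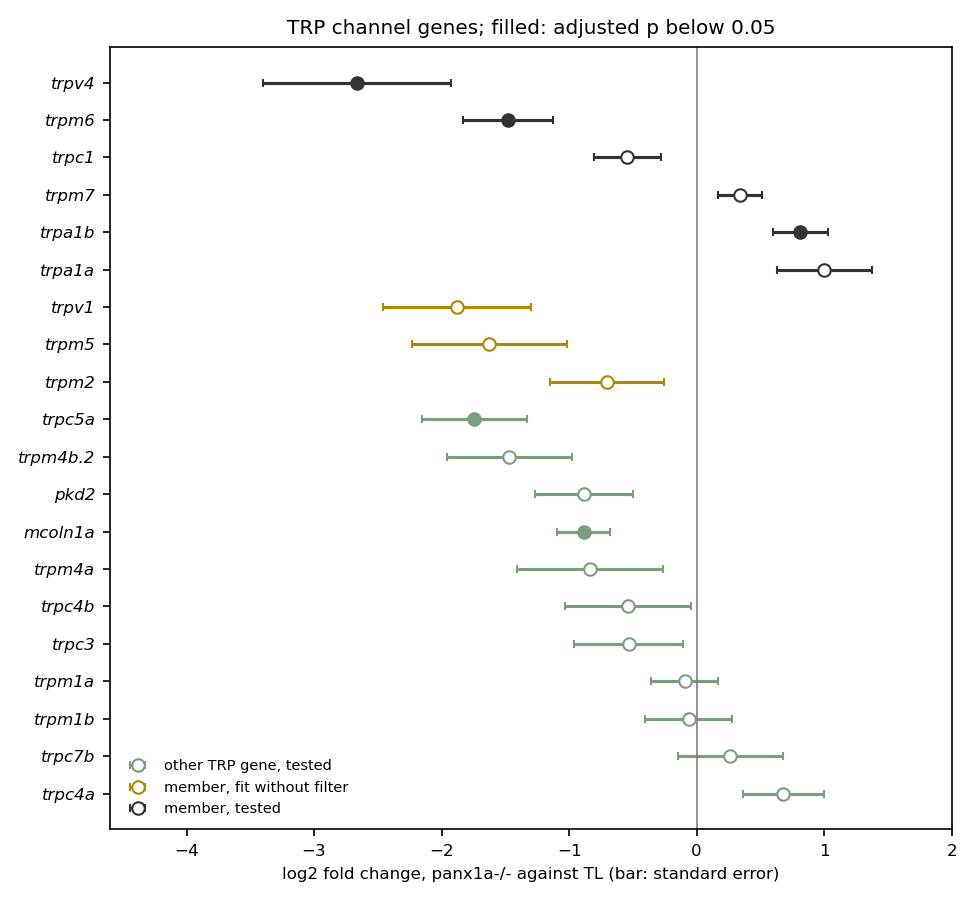
Log2 fold change of *panx1a*-/- against TL on the horizontal axis with its standard error, for the 6 tested members, the 3 members fitted without a filter and 11 other TRP genes. Filled points have an adjusted p below 0.05: *trpv4* at −2.66, *trpm6* at −1.48, *trpa1b* at 0.81, *trpc5a* at −1.74 and *mcoln1a* at −0.88.

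Of 29 further TRP family symbols, 17 were in the files and 11 were tested. Of these 11 genes, 2 were called lower and 0 higher, with 3 at an unadjusted p below 0.05 in either direction (43.7% of all tested genes) and a median log2 fold change of −0.54. *trpc5a*, a receptor-operated channel of the brain, fell from 17, 14 and 13 counts to 3, 5 and 4 counts (log2 fold change −1.74, edgeR, adjusted p = 0.0331). It passed the filter only through TL, where it was higher (0.671 to 0.929 CPM against 0.174 to 0.278 CPM). Its *panx1a*-/- counts lay at or near the detection limit of 3 counts. *mcoln1a*, which encodes a calcium release channel of lysosomes, fell from 6.89 ± 0.84 to 3.73 ± 0.22 CPM (SD of 3 libraries each; log2 fold change −0.88, adjusted p = 0.0331). *trpv6*, the epithelial calcium channel of ionocytes, and *trpc6a* were listed at 0 in all 6 libraries, as were 887 of the 15336 genes altogether. Whether their reads could be counted under these symbols was not tested, so the 0 gives no limit on their level.

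The same libraries differed in their content of skin transcripts. Of 21 epidermal keratinocyte markers, 19 were tested, 8 were called lower and 0 higher, with 13 at an unadjusted p below 0.05 (43.7% of all tested genes) and all 19 log2 fold changes below 0 (median −1.82). The keratins *cyt1l* (log2 fold change −4.01), *krtt1c19e* (−3.96), *krt97* (−3.21) and *cyt1* (−2.94) changed most. The summed level of the keratinocyte list ranged from 20372 to 47333 CPM in TL and from 2612 to 8884 CPM in *panx1a*-/- libraries, and no listed marker found in the files was at 0.

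Of 18 skin ionocyte markers, 14 were tested, with 12 at an unadjusted p below 0.05 (43.7% of all tested genes) and a median log2 fold change of −2.19. Of these markers 9 were called lower and 0 higher, beside 11.8% and 9.88% of all tested genes. Those called lower include *slc12a10.2*, a sodium-chloride cotransporter (−3.16), and *foxi3b*, a transcription factor that specifies ionocytes (−3.02). The carbonic anhydrase *ca15a* (−2.61) and the chloride channel *clcn2c* (−2.56) were also among them. The ionocyte list summed to between 763 and 1349 CPM in TL and between 417 and 526 CPM in *panx1a*-/- libraries, with 2 listed genes at 0 throughout. TL replicate 1 was the lowest TL library in both skin lists.

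**Figure D3:**
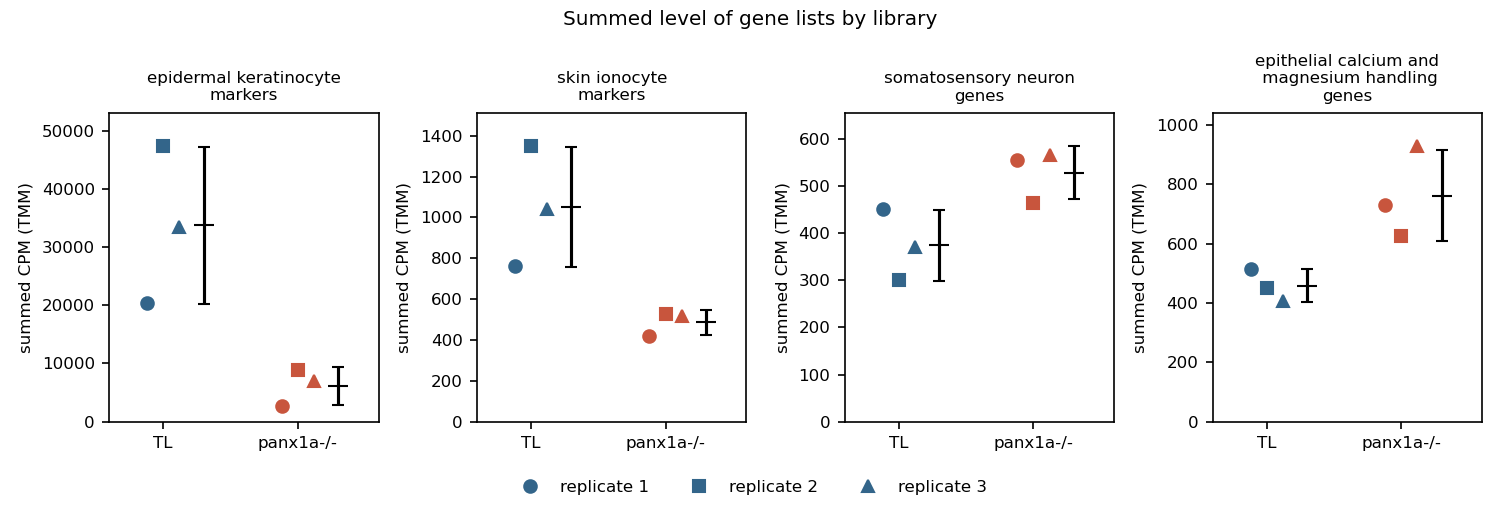
Summed CPM of the genes of 4 lists on the vertical axes, from 0, in 3 TL and 3 *panx1a*-/- libraries, with symbols for the replicate number and a black bar for the mean and SD. The keratinocyte list lies at 20372 CPM or more in TL and at 8884 CPM or less in *panx1a*-/- libraries. The sums of the somatosensory and the calcium and magnesium lists are higher in *panx1a*-/- libraries. In the calcium and magnesium list 9 of 17 tested genes nevertheless had a log2 fold change below 0 (median −0.21).

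Set against these lists within each library, the called members gave differing pictures. *trpv4* amounted to 0.644, 1.15 and 1.41 CPM per 10000 CPM of keratinocyte markers in TL and to 1.11, 1.38 and 0.301 in *panx1a*-/- libraries, which overlapped. Per 10000 CPM of ionocyte markers *trpv4* was at 17.2, 40.3 and 45.2 against 6.95, 23.2 and 4.01, which also overlapped. *trpm6* per 10000 CPM of ionocyte markers was at 103, 94.1 and 101 in TL and at 57.0, 108 and 57.5 in *panx1a*-/- libraries, with *panx1a*-/- replicate 2 above the TL range. Against keratinocyte markers *trpm6* was higher in all *panx1a*-/- libraries (4.32 to 9.10) than in all TL libraries (2.68 to 3.86). Single genes weighed heavily in these sums, as *krt91* made up 29.9% of the keratinocyte and *rhbg* 38.3% of the ionocyte list. The part of skin content in the *trpv4* and *trpm6* differences was not tested.

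The somatosensory neuron genes, the cell type in which *trpa1b* acts, had a median log2 fold change above 0. Of 28 listed genes 20 were tested, and 16 log2 fold changes lay above 0 (median 0.55). Of the 20, 2 were called higher and 1 lower, beside 9.88% and 11.8% of all tested genes, so the calls do not exceed the background. At an unadjusted p below 0.05 there were 12 (43.7% of all tested genes). *isl2a*, a transcription factor of primary sensory neurons, rose from 18.2 ± 1.01 to 30.9 ± 4.15 CPM (SD of 3 libraries each; edgeR, adjusted p = 0.0298), and *prph*, the intermediate filament peripherin, had a log2 fold change of 0.63. *runx3*, which in mammals specifies proprioceptive neurons and also acts in blood cells, fell by 1.11 on the log2 scale. The list summed to between 300 and 452 CPM in TL and between 464 and 566 CPM in *panx1a*-/- libraries, with 2 genes at 0. Per 10000 CPM of this list *trpa1b* was at 73.7, 121 and 78.1 in TL and at 114, 121 and 94.5 in *panx1a*-/- libraries, which overlapped. *zgc:158291* made up 20.6% of the list. *trpv1*, described above as also a gene of nociceptive neurons, went the other way, at 7 counts or fewer per library. Its log2 fold change without a filter was −1.88 and was not called (edgeR, adjusted p = 0.0515). How particular the list is to somatosensory neurons in whole larvae was not tested, nor was its part in the *trpa1b* difference.

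Among 19 taste and solitary chemosensory cell genes, 9 were tested, with 1 called lower and 0 higher (4 at an unadjusted p below 0.05 in either direction, near the 43.7% of all tested genes; median log2 fold change 0.37). The gene called was *otop1*, a proton channel that carries sour taste in mammals, which fell from 7.43 ± 0.51 to 3.15 ± 1.48 CPM (SD of 3 libraries each; edgeR, adjusted p = 0.0410). It is also known from the inner ear and is not particular to taste cells.

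Genes of epithelial calcium and magnesium handling, the process that *trpm6* and *trpm7* serve, were called higher in 7 and lower in 0 of 17 tested cases, out of 30 listed, with 9 at an unadjusted p below 0.05 (43.7% of all tested genes) and a median log2 fold change of −0.21. *pth1a*, a parathyroid hormone gene that promotes calcium uptake, rose from 0.459 ± 0.265 to 4.27 ± 0.98 CPM (SD of 3 libraries each; log2 fold change 3.19, edgeR, adjusted p = 0.0221). *stc1*, a stanniocalcin gene, had a log2 fold change of 2.30 from 3, 1 and 3 counts in TL, at or under the detection limit. It reached the filter level of about 0.569 CPM only in *panx1a*-/- libraries (0.580, 0.585 and 0.834 CPM). *pth1a* reached that level there and, among TL libraries, only in replicate 1 (0.765 CPM). The plasma membrane calcium pump *atp2b1b* (1.67) and the vitamin D receptor *vdrb* (1.26) followed. Of the paralogs listed beside them, *pth1b* (−0.40), *stc1l* (−0.33) and *vdra* (−0.49) were not called, while the pump *atp2b1a* (1.15) was called higher. Among the magnesium genes of the list, *cnnm1* (1.24) was called higher, while *cnnm2a* (−0.83), *magt1* (−0.55) and *egf* (−0.42) were not called. The other genes called higher belong to calcium handling. Further magnesium genes, such as *cnnm4a* and *slc41a1*, were not found in the files. The pumps are also expressed in neurons, so the list is not particular to epithelia.

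Of 20 symbols for *trpc1* partners and store-operated calcium entry, 11 were tested (median log2 fold change −0.36). Of these, 2 were called higher and 2 lower, beside 9.88% and 11.8% of all tested genes. At an unadjusted p below 0.05 there were 6 (43.7% of all tested genes). *cav1*, the membrane scaffold caveolin that binds TRPC1 in mammals, fell from 18.6 ± 6.65 to 4.48 ± 1.51 CPM (SD of 3 libraries each; log2 fold change −2.04, edgeR, adjusted p = 0.0274), and the phospholipase *plcb3* fell by 1.98 on the log2 scale. The calcium release-activated channel *orai1b* rose by 1.19, and *tmem178b* by 1.25.

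Melanophore markers, given for *trpm7*, were called higher in 1 (*gpr143*, log2 fold change 0.97) and lower in 0 of 9 tested cases, with 1 at an unadjusted p below 0.05. Of the neutrophil and macrophage markers, given for *trpm2*, 1 of 12 tested genes was called lower (*csf1ra*, −1.43) and 0 higher, with 5 at an unadjusted p below 0.05. Over all tested genes the shares were 11.8% called lower, 9.88% called higher and 43.7% at an unadjusted p below 0.05. The neutrophil and macrophage counts and the melanophore call lie near these shares. The melanophore count at an unadjusted p below 0.05 lies under its share.

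The tested genes outside the family whose log2 CPM followed a called member most closely over the 6 libraries were *cmtm6*, *mgst2* and *ctsa* for *trpv4* (Pearson r = 0.997, 0.997 and 0.995), *cx44.2*, *prickle1b* and *zgc:92480* for *trpm6* (r = 0.999 for each), and *si:dkeyp-2e4.3*, *ercc6l2* and *pomt1* for *trpa1b* (r = 0.998, 0.997 and 0.997). With 6 libraries in 2 genotypes such values were common: 573 genes exceeded r = 0.95 for *trpv4*, 750 for *trpm6* and 179 for *trpa1b*. They share the libraries, their depth and the genotype difference, and are given as a description.

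The 3 calls depended on which libraries were included. Leaving out TL replicate 2, TL replicate 3, *panx1a*-/- replicate 1 or *panx1a*-/- replicate 3 left 0 members called in either direction. The targeted gene *panx1a* also lost its call without TL replicate 3 or *panx1a*-/- replicate 3 (edgeR, adjusted p = 0.0637 and 0.0649). Leaving out TL replicate 1 kept *trpv4*, *trpm6* and *trpa1b*, and leaving out *panx1a*-/- replicate 2 added *trpm5* to them (log2 fold change −2.36, edgeR, adjusted p = 0.0425). In that fit *trpm5* passed the filter only through TL, where it was higher, with 1 and 3 counts in the *panx1a*-/- libraries that remained. Over all genes the 4 fits without a member call made 1 to 38 calls higher and 1 to 104 lower, so the list counts above rest on the same libraries. The log2 fold changes kept their sign in these fits and ranged from −3.87 to −2.30 for *trpv4*, from −1.94 to −1.24 for *trpm6* and from 0.73 to 0.88 for *trpa1b*. With the share of reads matched to no gene feature as a covariate, which nearly coincides with genotype, 0 members were called (edgeR, adjusted p = 0.999 each). The log2 fold change was then 0.50 for *trpv4* (standard error 0.78), −0.49 for *trpm6* (0.56) and 0.87 for *trpa1b* (0.45). Those of *trpv4* and *trpm6* were smaller in size than their standard errors.

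**Figure D4:**
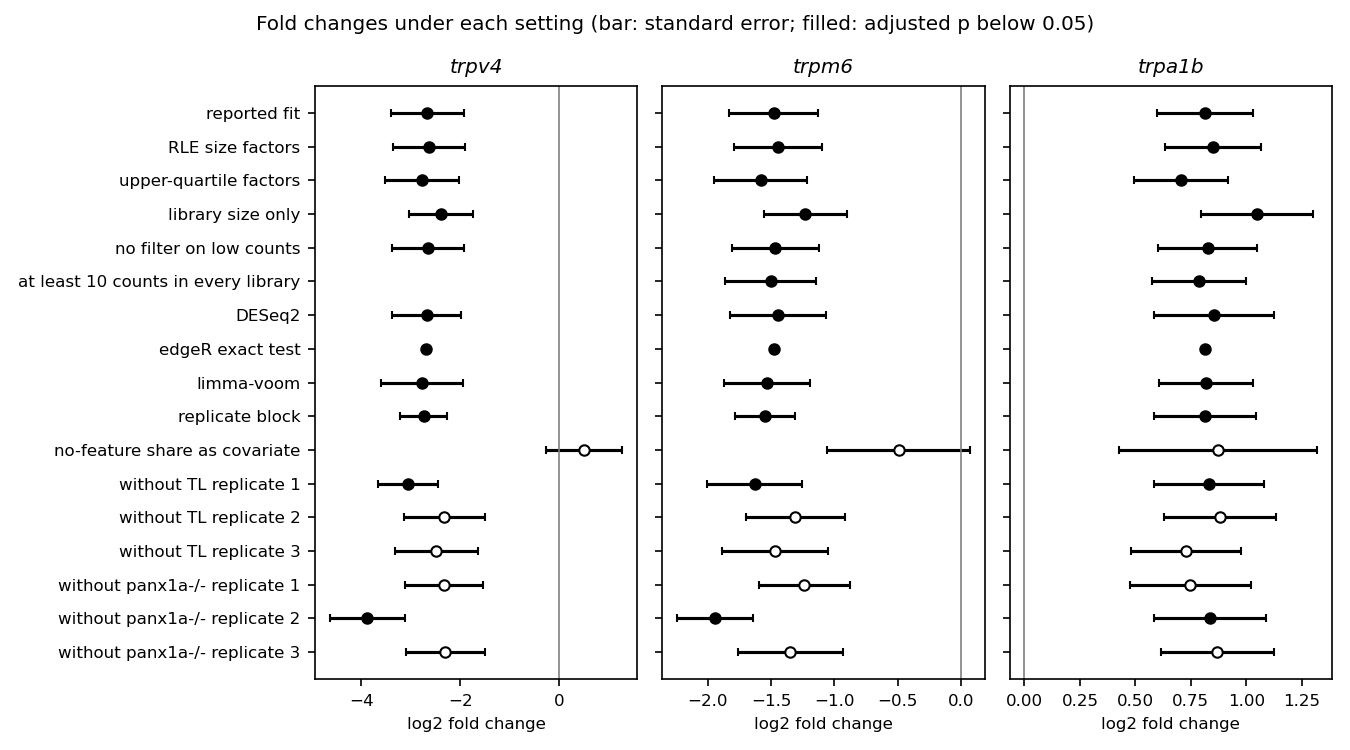
Log2 fold change with its standard error on the horizontal axis for *trpv4*, *trpm6* and *trpa1b* under each setting, one per line; edgeR's exact test gives no standard error, and *trpv4* is absent where 10 counts in every library were required. Filled points have an adjusted p below 0.05. *trpv4* changes sign, to 0.50 (standard error 0.78), with the share of reads matched to no gene feature as a covariate. *trpa1b* stays between 0.71 and 1.05.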

How the data were processed

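For each of the 6 libraries the authors deposited a table of unnormalized counts by gene symbol, in the layout of HTSeq-count, with 5 rows of unassigned reads that were kept out of library sizes and tests (no feature, 30.2% to 59.4% of uniquely aligned reads; ambiguous, 0.102% to 0.177%). Libraries were directional and paired-end. The submitters' processing notes name TopHat2 2.0.11, HTSeq 0.6.1p2, Trim Galore 0.4.4 and the build danRer11. The annotation, the strand setting and the counting mode were not given in the sources used here, so reads of overlapping genes may be misassigned.

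Counts were analysed in R 4.3.3 with edgeR 4.0.16: default filter on low counts (12797 genes), TMM factors, robust quasi-likelihood test with genotype as the only factor, Benjamini-Hochberg adjustment over all tested genes. Standard errors are the size of the log2 fold change divided by the square root of F. The biological coefficient of variation was 0.254. The edgeR fit was also run on simulated counts with a common dispersion for all genes. These held no quality difference between genotypes, so that run does not bear on such a difference here. Alternatives used DESeq2 1.42.0 and limma 3.58.1 (voom), among others.

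Members and lists were chosen by symbol with earlier results of these data known. The pair ratios and the ratios to marker lists were chosen after member values were seen. All members, and from each list at most the 4 called genes with the largest change, are named, with *panx1a* and, for each called member, the 3 most correlated genes. Outside this rule, some genes were named after their values were seen. These are the genes overlapping a member, the leading genes of summed lists (*krt91*, *rhbg*, *zgc:158291*) and the genes listed at 0 (*trpv6*, *trpc6a*). Paralogs of the named calcium handling genes and the magnesium genes given beside them were added in the same way. Symbol synonyms and the genes overlapping a member came from RefSeq (GRCz12tu). The build named for the counts is danRer11, so overlaps in the annotation that assigned the reads may differ.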

Additional observations from a re-analysis of the deposited data

Results flagged for a closer look

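Outside the gene counts, the lowest share of reads matched to no gene feature in a *panx1a*-/- library was 48.4%, above the highest TL library at 42.9%.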

How the results depend on the processing

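With RLE, upper-quartile or library size scaling all 6 tested members kept their direction and their call. Relative to TMM (median log2 fold change of all genes −0.06) upper-quartile scaling moved that median to −0.17, with 874 genes called higher and 1925 lower, and scaling by library size alone moved it to 0.17, with 1026 higher and 607 lower. DESeq2 called 1961 genes higher. Requiring 10 counts in every library left *trpv4* untested and 1 member called lower. Requiring an unadjusted p below 0.0001 left 22 genes higher, 29 lower and 0 members in either direction. With the share of reads matched to no gene feature as a covariate, 0 genes were called higher and 1 lower (581 at an unadjusted p below 0.05). In that fit 0 members were called, and *trpv4* reversed in sign to 0.50, with a larger standard error of 0.78. *panx1a* stood at −2.38 (standard error 0.48, edgeR, adjusted p = 0.574). The cause was not tested. Leaving out each library gave 1 to 2392 genes higher, 1 to 2316 lower, 0 to 1 members higher, 0 to 3 lower, and −2.90 to −2.62 for *panx1a*. A replicate block gave 1743 genes higher, 2139 lower, and 1 member higher and 2 lower. Deviations of same-numbered libraries correlated at r = 0.12, 0.30 and 0.08, and those of differently numbered libraries at −0.21 to 0.14. Whether the numbers mark pairs was not given in the sources used here, so the main fit did not use them. Depth limits *trpv1*, *trpm2* and *trpm5*, at 16 counts or fewer per library.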
